A study of Mus musculus with 8 samples.

Results

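The phagocyte NADPH oxidase is an enzyme complex that passes electrons from NADPH across a membrane onto oxygen, which yields superoxide. Its membrane core is a flavocytochrome made of the products of Cybb and Cyba, and its cytosolic subunits include the products of Ncf1 and Ncf4. On stimulation these join the core together with a Rac GTPase. Neutrophils and macrophages use the complex to kill microbes, and inherited loss of its subunits causes chronic granulomatous disease in humans. The genes described here are Cybb, Cyba, Ncf1, Ncf4, Rac1 and Rac2, chosen by symbol, which are 6 of the 24421 gene symbols counted in each library. All 6 were among the 12623 genes that passed the filter on low counts.

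RNA was sequenced from bone marrow cells of C57BL/6 mice that carried the MLL-AF9 fusion oncogene, which drives acute leukemia, and that were sorted for high c-KIT, a growth factor receptor on immature blood cells. The KO group (2 libraries) came from Ikzf2Δ/Δ mice and the WT group (2 libraries) from Ikzf2f/f mice. The product of Ikzf2, Helios, is an Ikaros-family transcription factor that binds DNA through zinc fingers. The comparison asked, as the series title frames it, what Helios does for self-renewal and for myeloid maturation in these cells. All cells of both groups were MLL-AF9 leukemic marrow that had been frozen and thawed. The labels give no age, no Cre driver and no statement on whether the replicates came from separate animals, so p-values cover only the spread among these 4 libraries, part of which could be technical.

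Gene counts ran from 16006081 to 18017545 in the KO libraries and from 18711837 to 19286090 in the WT libraries. Ikzf2, the targeted gene, stood at 10.9 and 26.5 CPM in KO, against 283 and 271 CPM in WT, where CPM is a gene's share of the library's gene reads, scaled to 1e6 reads after TMM adjustment between libraries. Kit, the gene of the sorted receptor, was at 236 and 376 CPM in KO and at 215 and 329 CPM in WT. Of the erythroid markers, 6 of 10, the globin genes among them, were at 0 in every library. KO replicate 1 stood apart in its sex-linked genes, with 832 CPM of the X-inactivation RNA Xist and 0.062 CPM of the Y-linked gene Ddx3y. KO replicate 2 had 0.35 and 70.0 CPM of the same genes. WT replicate 1 had 0.60 and 109 CPM, and WT replicate 2 had 0.48 and 102 CPM. By these genes KO replicate 1 had the pattern of female cells and the other libraries that of male cells. The KO pair thus did not come from the same animal. Sex differed within KO, and between KO replicate 1 and both WT libraries.

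The fold change of every oxidase gene was above 0 in KO, but edgeR's quasi-likelihood test called none of them. Cybb had the highest log2 fold change, 1.95, and the widest spread between replicates. Ncf4 had a log2 fold change of 0.89 and rose by DESeq2, an alternative test, alone. Rac2 did not overlap between the groups, with KO above WT, without passing either test, while Cyba, Ncf1 and Rac1 overlapped between the groups. Over all genes edgeR called 0 of 12623 (0%), with 968 (7.67%) at an unadjusted p under 0.05. DESeq2 called 352 (2.62%) of the 13422 genes to which it gave an adjusted p, and voom called 0 (935 had an unadjusted p under 0.05). Of the oxidase genes, 6 of 6 had a fold change above 0, against 49.4% of all tested genes. Both KO libraries lay above both WT libraries for 3 of 6, Cybb, Ncf4 and Rac2, against 18.1% of all tested genes. The median log2 fold change was 0.54 over the 6 genes and -0.0043 over all tested genes. Within replicate number 1 the median difference in log2 CPM was 0.48, and within number 2 it was 0.60.

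**Figure D1:**
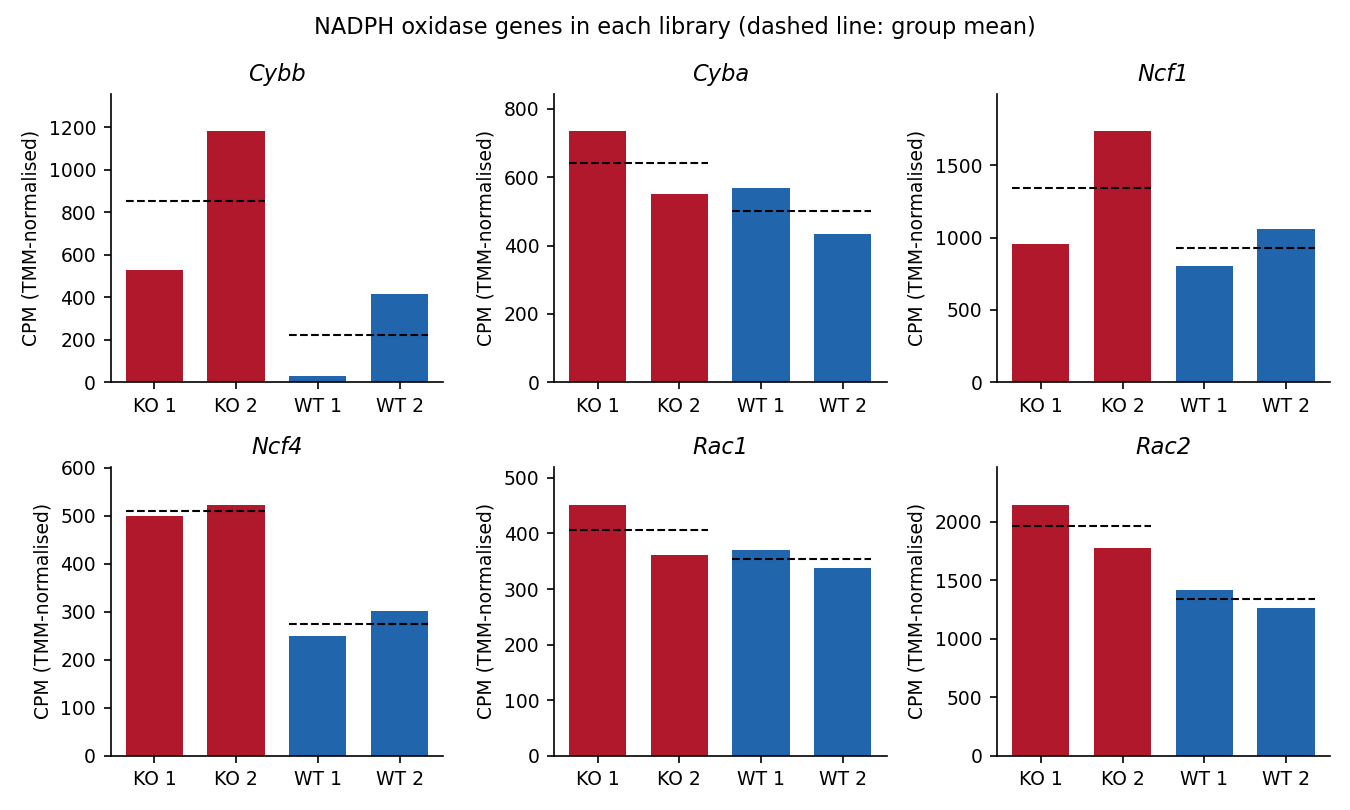
TMM-normalised CPM (vertical axes, each from 0) of the 6 oxidase genes in the 2 KO libraries (red) and the 2 WT libraries (blue), with the dashed line at the group mean. Cybb ran from 26.9 CPM in WT replicate 1 to 1181 CPM in KO replicate 2, while both bars of Ncf4 and of Rac2 were higher in KO than in WT.

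Cybb encodes the catalytic subunit of the flavocytochrome, also called gp91phox or NOX2, which binds the flavin and heme groups that carry the electrons. The gene lies on chromosome X from 9435252 to 9487766 (GRCm38.p6). It had 528 and 1181 CPM in the KO libraries, against 26.9 and 417 CPM in the WT libraries. These came from 8540 and 20127 reads in KO and from 539 and 7860 reads in WT. WT replicate 1 was far below the other 3 libraries, and the groups did not overlap. The 95% exact Poisson interval for WT replicate 1, which covers counting error only, was 24.7 to 29.3 CPM. The 2 WT libraries differed by 3.95 on the log2 CPM scale, a gap that only 105 of the 12623 tested genes exceeded, and the 2 KO libraries differed by 1.16. The mean was 854 ± 462 CPM in KO and 222 ± 276 CPM in WT (SD, n = 2 each). The log2 fold change was 1.95 (SE 1.23), and 523 of the 12623 tested genes had a larger one in either direction. It passed neither edgeR's quasi-likelihood test (adjusted p = 0.824) nor DESeq2 (adjusted p = 0.928).

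The size of the Cybb difference rested on which WT library was kept. Without WT replicate 1 the edgeR log2 fold change was 1.04 (adjusted p = 1), and without WT replicate 2 it was 5.0 (adjusted p = 0.00365). That second fit took the spread from the KO pair alone, and edgeR called 156 of all genes in it (1.19%). DESeq2 also called Cybb there (adjusted p = 3.79e-17), 1 of 6 oxidase genes, against 2.83% of all genes in the same fit. Without KO replicate 1 the edgeR value was 2.42, and without KO replicate 2 it was 1.25. Voom, which averages on the log scale, gave 2.89. In log2 CPM, Cybb was 4.29 higher in KO replicate 1 than in WT replicate 1, and 1.5 higher in KO replicate 2 than in WT replicate 2.

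As Cybb is X-linked, its levels were set beside the sex-linked genes. KO replicate 1, the library with 832 CPM of Xist, lay between the other KO library and both WT libraries for Cybb. The WT pair, in which Cybb differed most, had similar sex-linked values, at 109 and 102 CPM of Ddx3y. The tested genes within 500000 bases of Cybb were Xk and Dynlt3, looked up after the values of Cybb were seen. Xk, which encodes a red cell membrane protein, had 42.2 and 26.3 CPM in KO and 22.7 and 25.1 CPM in WT. Dynlt3, a dynein light chain gene, had 54.5 and 49.4 CPM in KO and 60.2 and 75.2 CPM in WT. The WT libraries differed by at most 0.32 on the log2 scale for these neighbours, against 3.95 for Cybb. The part of sex, or of the region around the gene, in the Cybb levels was not tested. A long noncoding gene, Gm33784, overlaps Cybb in the annotation, and since the strand setting of the counting is not given in the sources used here, reads of the overlap cannot be told apart.

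The 250 bases before the Cybb start are shown because Cybb had the largest gap between replicates of the 6 genes. The RefSeq promoter table (GRCm38.p6) held the promoters of Cybb, Cyba and Ncf1, 3 of the 6 genes. Each was searched on both strands for GAGGAA, a core word of PU.1 binding, TGGGAA, a word bound by Ikaros-family factors, and CCAAT, the CCAAT box. The stretch lies at chrX:9469325-9469574 on the minus strand and runs 5′ to 3′ toward the start, with word matches in capitals. The start that the table uses lies inside the annotated span of the gene.
Cybb promoter: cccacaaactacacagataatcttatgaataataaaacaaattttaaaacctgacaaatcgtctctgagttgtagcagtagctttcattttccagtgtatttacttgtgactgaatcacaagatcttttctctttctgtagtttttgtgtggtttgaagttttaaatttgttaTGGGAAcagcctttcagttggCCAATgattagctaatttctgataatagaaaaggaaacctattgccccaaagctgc
The Cybb stretch held TGGGAA once, 77 bases before the start, and CCAAT once, 56 bases before it, and the 2 matches did not overlap. It held no GAGGAA. The same-sized stretches of Cyba and Ncf1 held none of the 3 words. Among all 32851 promoters of the table, TGGGAA stood in 21.6%, CCAAT in 33.8% and GAGGAA in 23.3%. The Cybb stretch was 34.0% G and C, those of Cyba and Ncf1 60.0% and 54.4%. A match, or the lack of one, describes the letters only, and other forms of these binding sites were not searched.

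Cyba encodes the small flavocytochrome subunit that stabilizes the catalytic one and docks the cytosolic subunits. The gene lies on chromosome 8 from 122424771 to 122432940. It had 735 and 550 CPM in the KO libraries and 569 and 434 CPM in the WT libraries. KO replicate 2 fell below WT replicate 1, so the groups overlapped. The log2 fold change was 0.36 (SE 0.27), and it passed neither edgeR (adjusted p = 0.862) nor DESeq2 (adjusted p = 0.942). The WT libraries lay 3.95 apart on the log2 scale for Cybb and 0.39 apart for Cyba.

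The ratio of Cybb to Cyba reads within a library needs no scaling between libraries. It was 0.718 and 2.15 in the KO libraries and 0.0474 and 0.960 in the WT libraries. KO replicate 1 lay below WT replicate 2, so the groups overlapped. On the log2 scale the mean was 0.31 ± 1.12 in KO and -2.23 ± 3.07 in WT (SD, n = 2 each), a difference of 2.54 (exact two-sided permutation p = 0.667, adjusted p = 0.667 over the 2 ratios tested). Without WT replicate 1 the difference was 0.37, and without WT replicate 2 it was 4.71. Gene lengths were not at hand, so the ratios compare libraries and not the levels of the 2 genes.

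Ncf1 encodes the organizer subunit, whose phosphorylation starts the assembly of the complex. The gene lies on chromosome 5 from 134220053 to 134229628. It had 956 and 1736 CPM in the KO libraries and 802 and 1058 CPM in the WT libraries. KO replicate 2 was the highest, while KO replicate 1 fell between the WT libraries. Its log2 fold change, 0.53 (SE 0.36), passed neither edgeR (adjusted p = 0.845) nor DESeq2 (adjusted p = 0.858). Without KO replicate 2 it was 0.039, the lowest of the fits with a library left out. A long noncoding gene, LOC115490142, overlaps Ncf1 in the annotation.

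Ncf4 encodes the subunit that binds a phosphoinositide lipid of the phagosome membrane and helps to hold the complex there. The gene lies on chromosome 15 from 78244164 to 78262582. It had 498 and 523 CPM in the KO libraries, against 249 and 301 CPM in the WT libraries. The KO libraries lay close together, 0.070 apart on the log2 scale, the WT libraries lay 0.27 apart, and the groups did not overlap. The mean was 511 ± 17.4 CPM in KO and 275 ± 36.7 CPM in WT (SD, n = 2 each). The log2 fold change was 0.89 (SE 0.22), with an unadjusted edgeR p of 0.00860, the only oxidase gene under 0.05 by edgeR, and an edgeR adjusted p of 0.445. By DESeq2 Ncf4 rose (adjusted p = 0.0227), 1 of 6 oxidase genes, where 1.56% of all genes were called higher.

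DESeq2 called Ncf4 in 0 of 4 fits that each left out a library, where it called 1.46%, 3.07%, 1.20% and 2.83% of all genes. Its adjusted p for Ncf4, in the same order, was 0.135 without KO replicate 1, 0.118 without KO replicate 2, 0.9998 without WT replicate 1 and 0.315 without WT replicate 2. The edgeR log2 fold change moved little, between 0.77 and 1.05 in those fits. Ncf4 was 1.0 higher in KO than in WT on the log2 CPM scale within replicate number 1 and 0.80 higher within number 2.

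**Figure D2:**
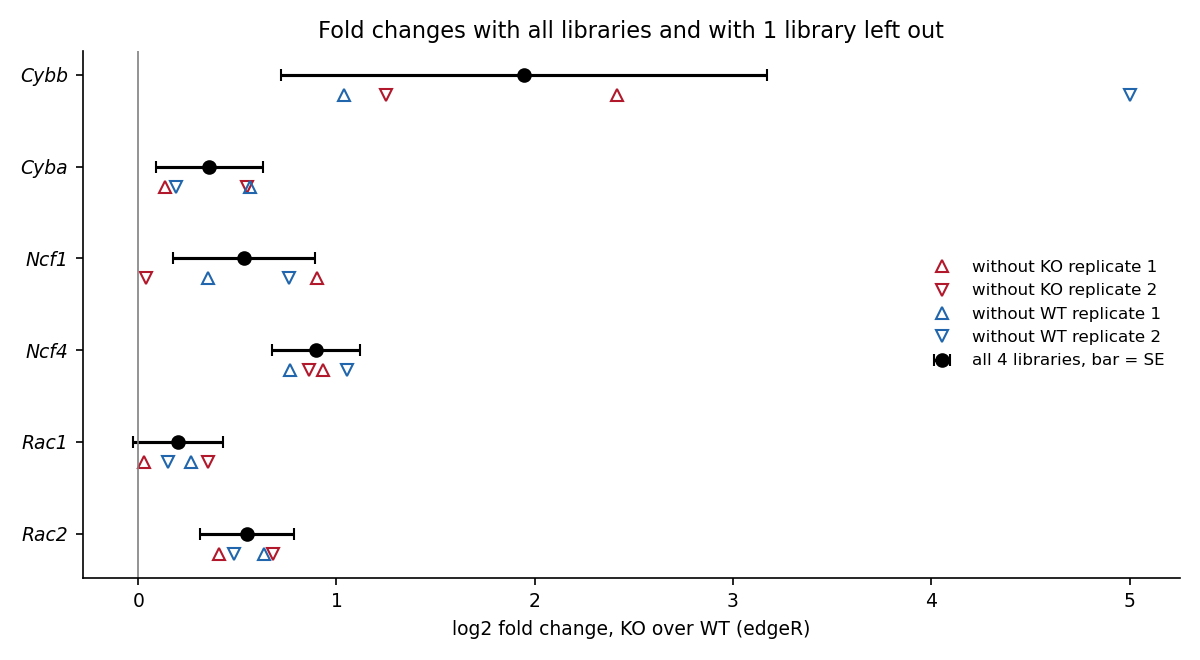
Log2 fold change of KO over WT by edgeR (horizontal axis) for each oxidase gene, with all 4 libraries (black, bar = SE) and with 1 library left out (open triangles). Cybb ran from 1.04 to 5.0 as libraries were left out, while Ncf4 stayed between 0.77 and 1.05.

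Rac2 encodes the Rac GTPase of blood cells, the main partner of the oxidase in neutrophils. The gene lies on chromosome 15 from 78559169 to 78572783. It had 2148 and 1778 CPM in the KO libraries, against 1417 and 1265 CPM in the WT libraries. Both KO values were above both WT values. KO over WT gave a log2 fold change of 0.55 (SE 0.24), with an unadjusted edgeR p of 0.0663, and it passed neither edgeR (adjusted p = 0.687) nor DESeq2 (adjusted p = 0.386). In the fits with a library left out it ran from 0.41 to 0.68.

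Rac1 encodes the Rac GTPase found in most cell types, which also serves the oxidase in macrophages. The gene lies on chromosome 5 from 143505481 to 143528031. It had 452 and 361 CPM in the KO libraries and 369 and 338 CPM in the WT libraries, and the groups overlapped. The log2 fold change of Rac1 was 0.20 (SE 0.23; edgeR adjusted p = 0.920; DESeq2 adjusted p = 0.9995), and it was 0.030 without KO replicate 1.

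The ratio of Rac2 to Rac1 reads was 4.75 and 4.93 in the KO libraries, against 3.84 and 3.75 in the WT libraries. The ratios of a group lay close together, and both KO ratios were above both WT ratios. The mean log2 ratio was 2.28 ± 0.037 in KO and 1.92 ± 0.025 in WT (SD, n = 2 each), a difference of 0.35. With 2 libraries against 2, the exact two-sided permutation p of 0.333 is the smallest the test can give (adjusted p = 0.666 over the 2 ratios), so the test cannot reach the threshold here. With a library left out the difference ran from 0.33 to 0.38.

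**Figure D3:**
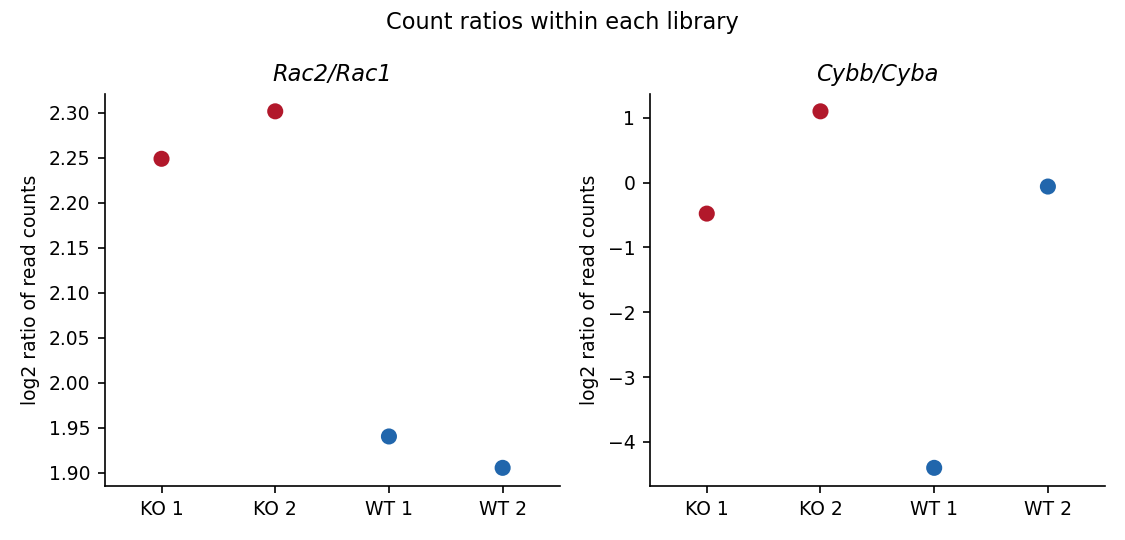
Log2 ratio of Rac2 to Rac1 reads (left) and of Cybb to Cyba reads (right) in each KO (red) and WT (blue) library, on vertical axes of different range. The Rac ratios form tight pairs at 2.25 and 2.3 in KO and at 1.94 and 1.91 in WT, while the Cybb ratio of WT replicate 1, at -4.40, lies far below the rest.

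Ncf4 and Rac2, neither of which overlapped between the groups, lie 296586 bases apart on chromosome 15. Of the 10 genes between them with a count, 6 were tested. Their log2 fold changes ran from -2.0 to 0.47 and were above 0 in 2, against 49.4% of all tested genes. These 2 were Csf2rb2 and Csf2rb, which encode beta chains of cytokine receptors. Csf2rb had 257 and 343 CPM in KO and 220 and 214 CPM in WT. In this stretch edgeR and DESeq2 called 0 genes each, where they called 0% and 2.62% of all genes. Only 1 of the 6, Kctd17, lower in KO, had an unadjusted edgeR p under 0.05, against 7.67% of all tested genes.

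The 5 genes whose pattern lay nearest to that of Cybb, by Euclidean distance of centred log2 CPM over the 4 libraries among 9743 genes of at least 5 CPM, were Fhdc1, Olfm1, Itgb2l, Ltf and S100a9. Their distances were 0.57, 0.78, 0.85, 0.98 and 0.99. Fhdc1, of the formin family, had 56.3 and 92.9 CPM in KO, against 1.55 and 31.0 CPM in WT. Ltf, the lactoferrin gene of secondary granules, had 131 and 391 CPM in KO, against 7.55 and 56.2 CPM in WT. In each of the 5 genes WT replicate 1 was the lowest library and KO replicate 2 the highest, as in Cybb, an order that the choice by distance over the same 4 libraries favours by construction. The other oxidase genes were farther away, from 3.36 for Ncf4 to 4.13 for Cyba, with 502 and 4753 genes nearer to Cybb than they were.

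**Figure D4:**
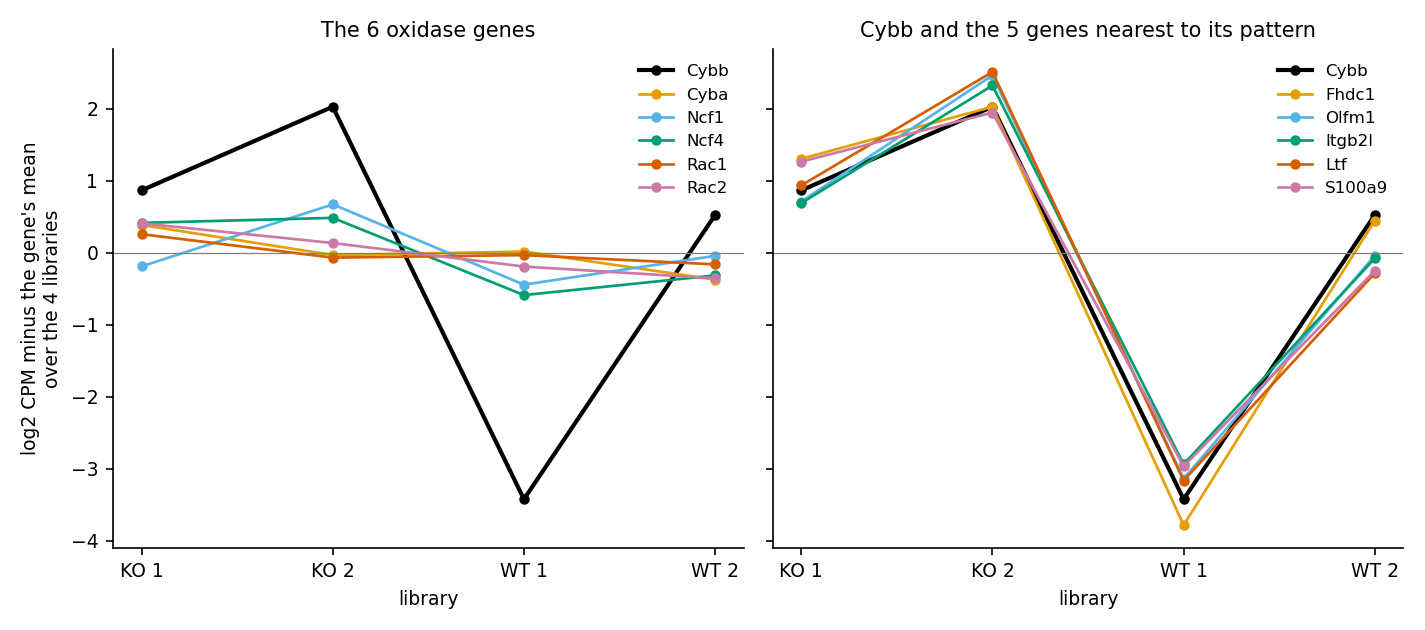
Log2 CPM minus the gene's mean over the 4 libraries (vertical axis) for the 6 oxidase genes (left) and for Cybb with the 5 genes nearest to its pattern (right), and the lines only join the points of a gene. WT replicate 1 is the low point of Cybb and of its 5 nearest genes, while the other 5 oxidase genes span a narrower range than Cybb.

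Markers of more mature myeloid cells differed between the libraries too. The summed level of the 11 measured mature neutrophil markers, of 12 listed, was 18278 and 24402 CPM in KO and 1324 and 5071 CPM in WT, with 11 of 11 detected in every library. WT replicate 1 had the lowest sum, as it had the lowest level of Cybb. All 11 had a fold change above 0, against 49.4% of all tested genes, with a median log2 fold change of 2.37. Both KO libraries lay above both WT libraries for 8, against 18.1% of all tested genes. Mmp8, Mmp9 and Retnlg overlapped between the groups. Mmp9 had 26.0 and 278 CPM in KO and 25.5 and 255 CPM in WT, a log2 fold change of 0.12. DESeq2 called 4 as higher, Ngp, Lcn2, Chil3 and Ltb4r1, where it called 1.56% of all genes higher. None of the 4 was called in every fit with a library left out. DESeq2 lost Ngp and Chil3 without either KO library, Lcn2 without KO replicate 2 or WT replicate 1, and Ltb4r1 without WT replicate 1.

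The 12 monocyte and macrophage markers summed to 2368 and 2081 CPM in KO and to 2425 and 1528 CPM in WT, with 12 detected in every library. Ly6c2, an antigen gene of inflammatory monocytes, held much of that sum, with 1257 and 1206 CPM in KO and 1931 and 855 CPM in WT. Without Ly6c2, a choice made after seeing the data, the other 11 summed to 1111 and 874 CPM in KO and to 494 and 673 CPM in WT, and the groups did not overlap. Of the 11 tested, 7 had a fold change above 0, against 49.4% of all tested genes, and the median log2 fold change was 1.40. Both KO libraries lay above both WT libraries for 6 of the 11, against 18.1% of all tested genes. Both KO libraries lay below both WT libraries for 2, Ms4a6c and Cd68, against 2412 of the 12623 tested genes. Cd68 had 96.0 and 84.8 CPM in KO and 150 and 133 CPM in WT. DESeq2 called 3 as higher, Csf1r, F13a1 and Mpeg1, against 1.56% of all genes, and 0 as lower. F13a1, a coagulation factor subunit gene, had 232 and 154 CPM in KO, against 25.4 and 14.6 CPM in WT, and DESeq2 called it in each fit with a library left out. Without KO replicate 1 and without WT replicate 1, DESeq2 lost Csf1r, the receptor gene of a macrophage growth factor, and Mpeg1, a macrophage perforin gene.

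The 12 dendritic cell markers summed to 1789 and 123 CPM in KO and to 94.5 and 36.3 CPM in WT, with 12 detected in each KO library and 9 in each WT library. Detected here means any read at all, and some of these genes had very few. The plasmacytoid marker Siglech had 12 and 2 reads in KO and 0 in both WT libraries, and it was not tested. Cd209a had 99 and 1 reads in KO and 0 and 1 in WT. KO replicate 1 stood apart in the sum, with 820 CPM of Cd74, 396 of H2-Aa, 282 of H2-Eb1 and 268 of H2-Ab1. Of the 7 tested, 5 had a fold change above 0, against 49.4% of all tested genes. The 2 below 0, Itgax and Batf3, were highest in WT replicate 1, at 37.1 and 16.9 CPM. DESeq2 called 3 of the 7 tested as higher, against 1.56% of all genes. These were the antigen presentation genes Cd74, H2-Aa and H2-Eb1, and it lost all 3 without WT replicate 1, H2-Aa and H2-Eb1 also without WT replicate 2, and H2-Aa also without KO replicate 1. Without KO replicate 1 the edgeR log2 fold change of Cd74 was 3.5, against 6.40 with all libraries. The 9 B cell markers summed to 36.3 and 25.8 CPM in KO and to 24.6 and 18.1 CPM in WT. The 10 T and NK cell markers summed to 96.1 and 136 CPM in KO and to 104 and 69.7 CPM in WT, with Cd8a and Ncr1 at 0 in every library. Of the 10 marker genes that DESeq2 called, edgeR called 0 with all libraries, where it called 0% of all genes. The part of such cells in the oxidase levels was not tested, and in bulk RNA fewer cells of a type and less RNA per cell cannot be told apart.

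Among the partners of the oxidase and factors of its assembly, 14 genes were tested, and DESeq2 called 2 as higher in KO, S100a8 and S100a9, and 0 as lower, where it called 1.56% of all genes higher. Their products form a calcium-binding pair that helps the complex assemble. The median log2 fold change of the 14 was 0.21, with 10 above 0, against 49.4% of all tested genes. S100a8 had 1679 and 2518 CPM in KO, against 78.2 and 389 CPM in WT, and its edgeR log2 fold change was 3.17 (SE 0.82, DESeq2 adjusted p = 3.17e-04). S100a9, also among the 5 genes nearest to Cybb, had 2056 and 3298 CPM in KO, against 110 and 720 CPM in WT (DESeq2 adjusted p = 0.0136). With all libraries neither passed edgeR. DESeq2 lost both without KO replicate 1 (adjusted p = 0.591 and 0.932) and without KO replicate 2 (0.564 and 0.781). Their edgeR log2 fold changes were 2.43 and 1.90 without WT replicate 1, and 4.76 and 4.62 without WT replicate 2. P4hb, the protein disulfide isomerase gene, named by the rule on CPM, had a log2 fold change of -0.0043 (SE 0.26).

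Of the other NOX and DUOX family genes and their partners, only 3 of 10 were tested. Of these, 0 were called by edgeR or DESeq2, which called 0% and 2.62% of all genes. An unadjusted edgeR p under 0.05 was found for 0, against 7.67% of all tested genes. Nox1, a catalytic subunit known mainly from the colon, had 18.2 and 7.57 CPM in KO and 13.7 and 8.22 CPM in WT. Noxo1, its organizer, had 7.05 and 5.4 CPM in KO and 6.45 and 6.41 CPM in WT. Both overlapped between the groups.

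Regulators of Rac, such as exchange factors, GTPase-activating proteins and the dissociation inhibitors that hold Rac in the cytosol, gave 22 tested genes. None passed edgeR or DESeq2, which called 0% and 2.62% of all genes. An unadjusted edgeR p under 0.05 was found for 1, against 7.67% of all tested genes. Above 0 were 13, against 49.4% of all tested genes, with a median of 0.11. Arhgdib, the dissociation inhibitor of blood cells, had 2810 and 2405 CPM in KO and 2426 and 1764 CPM in WT (log2 fold change 0.32, SE 0.27). Arhgdia, its widely expressed relative, had 625 and 699 CPM in KO and 784 and 699 CPM in WT. Both overlapped between the groups.

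Kinases upstream of the oxidase gave 22 tested genes with a median of 0.094. Above 0 were 15 of them, against 49.4% of all tested genes. DESeq2 called 1 of the 22 as higher in KO, against 1.56% of all genes, and 0 as lower. This was Pik3r5, the regulatory subunit of a phosphoinositide kinase downstream of chemoattractant receptors, with 37.3 and 68.6 CPM in KO, against 12.5 and 16.7 CPM in WT (edgeR log2 fold change 1.86, SE 0.38; DESeq2 adjusted p = 0.00243; edgeR adjusted p = 0.445). DESeq2 lost Pik3r5 without KO replicate 2 (adjusted p = 0.149) and without WT replicate 1 (0.179). Syk and Mapk14, named by the rule on CPM, stood at 0.20 (SE 0.29) and 0.050 (SE 0.21) on the log2 fold change scale.

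Enzymes that make, use or remove superoxide and peroxide, or that supply NADPH, gave 14 tested genes with a median of -0.16. Of these, 5 were above 0 and 9 below, where 49.4% of all tested genes were above 0. DESeq2 called 1 of the 14, as higher, where 1.56% of all genes were called higher. Mpo, the myeloperoxidase that turns peroxide into hypochlorous acid, had 7068 and 4308 CPM in KO, against 286 and 343 CPM in WT (log2 fold change 4.18, SE 0.37; DESeq2 adjusted p = 1.54e-30; edgeR adjusted p = 0.293), and DESeq2 called it in each of the 4 fits with a library left out. Without WT replicate 1 and without WT replicate 2 edgeR called Mpo as well (adjusted p = 0.00972 and 0.0022). Gpx1, a glutathione peroxidase gene, had 2020 and 1585 CPM in KO and 1432 and 1944 CPM in WT.

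Transcription factors known to act on the oxidase genes, or tied to such factors in leukemia, gave 19 tested genes with a median of 0.062. Above 0 were 11 of them, against 49.4% of all tested genes. Spi1, the gene of PU.1, which activates several oxidase genes, had 433 and 454 CPM in KO and 412 and 432 CPM in WT (log2 fold change 0.072, SE 0.21). Elf1, an ETS factor gene, had 242 and 343 CPM in KO and 387 and 372 CPM in WT (log2 fold change -0.38, SE 0.25). DESeq2 called Cebpd and Satb1 as higher and Gata2 as lower in KO, while edgeR called 0 of the 19 and had 5 at an unadjusted p under 0.05. Over all genes DESeq2 called 2.62% in either direction, and 7.67% had an unadjusted edgeR p under 0.05. Cebpd, a C/EBP factor gene, had 97.4 and 91.7 CPM in KO, against 48.8 and 53.3 CPM in WT (DESeq2 adjusted p = 0.0273). Satb1, a chromatin organizer gene, had 37.1 and 120 CPM in KO, against 22.4 and 9.86 CPM in WT (DESeq2 adjusted p = 0.0202). Gata2, a factor of blood stem cells, had 14.0 and 49.2 CPM in KO, against 74.3 and 234 CPM in WT (DESeq2 adjusted p = 0.0459).

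DESeq2 called Cebpd in 0 of the 4 fits that left out a library, with adjusted p from 0.149 without KO replicate 2 to 0.9998 without WT replicate 1, while its edgeR log2 fold change stayed between 0.83 and 0.97. It lost Satb1 without KO replicate 2 (adjusted p = 0.523) and WT replicate 2 (0.131), and Gata2 without KO replicate 1 (0.375) and WT replicate 2 (0.787). The edgeR log2 fold change of Satb1, 2.29 with all libraries, came to 1.2 when KO replicate 2 was dropped and was 3.0 when WT replicate 1 was dropped. For Gata2 it was -2.28 with all libraries, -3.46 without KO replicate 2 and -1.22 without WT replicate 2.

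**Figure D5:**
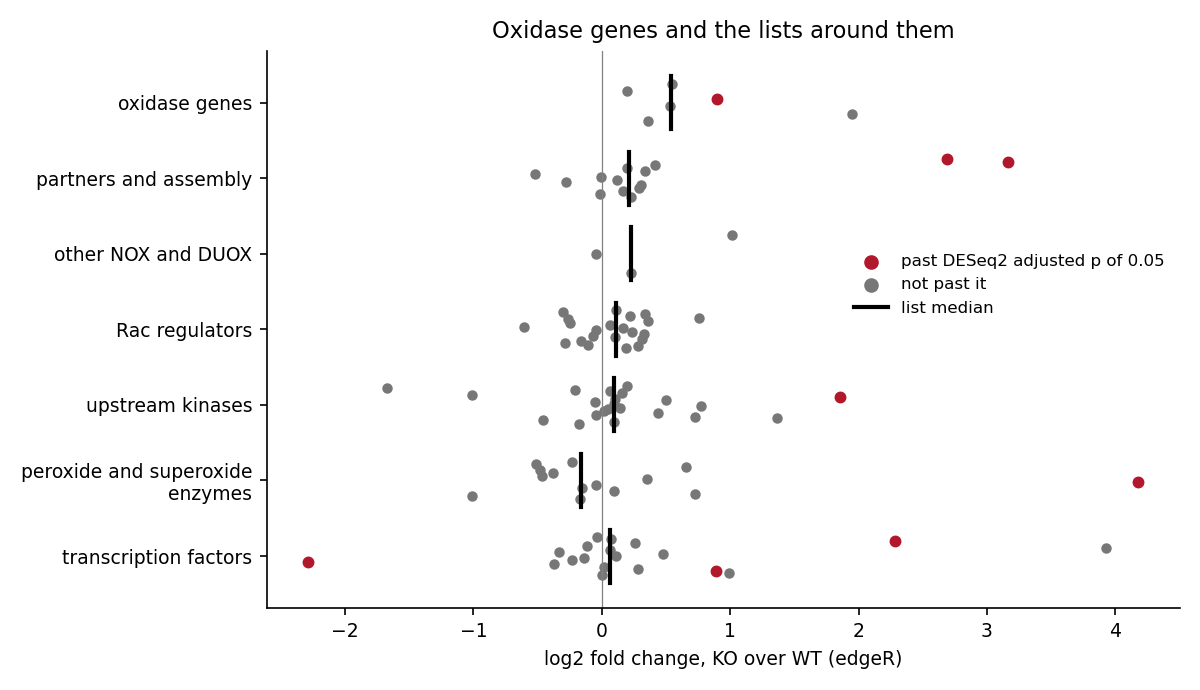
Log2 fold change of KO over WT by edgeR (horizontal axis) of each tested gene in the oxidase set and the 6 lists around it, with genes past DESeq2's threshold in red and the list median as a black bar. The median was 0.54 for the oxidase genes and lay between -0.16 and 0.23 for the other lists.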

How the data were processed

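The authors deposited 1 file of raw read counts per gene symbol for each of the 4 RNA libraries. Build mm10 is named in the submitters' processing notes, as are HTSeq, STAR 2.3.0, Picard, Bowtie2 2.2.5 and MACS2, with no role for any of them. Which annotation, strand option and filters on reads were used is not given in the sources used here. The 5 closing rows, reads assigned to no gene, held 69.3% to 72.4% of each file and were left out. The 4 chromatin accessibility samples were not used here.

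Groups and replicate numbers came from the sample titles. Replicate libraries differed by more than counting noise (chi-square per degree of freedom 91.1 in KO and 68.1 in WT), so each counted as its own sample. Analyses ran in R 4.3.3. The default filterByExpr rule of edgeR 4.0.16 kept 12623 genes, and TMM factors scaled the counts. The contrast of KO over WT was tested with the quasi-likelihood F-test of edgeR (robust, no covariate), with Benjamini-Hochberg adjustment over all tested genes at 0.05. The SE is the log2 fold change divided by the square root of F. Log2 CPM used a prior count of 2. The fit was tested on simulated data. DESeq2 1.42.0, voom in limma 3.58.1, 2 other scalings, no filter, each library left out and the replicate number as a block were alternatives.

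The oxidase genes and lists were chosen with earlier results of these data known. Named genes were the oxidase genes, each list's genes called by edgeR or DESeq2, its 2 members of highest mean CPM, and the 5 genes nearest to Cybb. Only genomic spans and no transcript lengths were at hand, so the ratios planned per length were taken on counts. Mean CPM served only to choose genes to name and gives no order of levels between genes. Intervals cover counting error only. A count of 3 equals 0.176 to 0.185 CPM in KO and 0.150 to 0.159 CPM in WT.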

Additional observations from a re-analysis of the deposited data

How the results depend on the processing

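No oxidase gene changed direction in any of the 14 alternative settings, and of 84 comparisons of a gene with a setting 81 stayed on the same side of the threshold. The other 3 passed it, Ncf4 by DESeq2 and Cybb without WT replicate 2 by edgeR and by DESeq2. The number of oxidase genes called, 0 by edgeR, was 1 by DESeq2, from 0 to 1 by edgeR with a library left out, and likewise 0 to 1 by DESeq2 with a library left out, an alternative added after seeing the data. Over all genes, edgeR's 0 calls became 4 without the filter, 11 with the replicate block and 0 to 156 with a library left out. DESeq2 called 352, and 178 and 384 without KO replicates 1 and 2 and 162 and 390 without WT replicates 1 and 2. The cause of these moves was not tested. The shared replicate numbers are not stated to mark a pairing. Deviations of same-numbered libraries correlated at 0.191 across genes, a value equal for both pairs by construction. A principal component analysis of log2 CPM split the libraries by replicate number on component 2, which held 33.9% of the variance. Scores there were 37.3 (KO) and 40.4 (WT) for replicate 1, and -38.2 (KO) and -39.5 (WT) for replicate 2. The cause of that split was not tested. With the replicate block the log2 fold change of Cybb was 2.89 and that of Ncf4 0.90, and 0 oxidase genes passed. The per-length ratios were not run. Each oxidase gene had at least 539 reads in every library, and with 2 libraries a group an exact permutation test cannot go below 0.333.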
